A study of Homo sapiens with 2 samples.

Results

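The genes described here are the replication-independent histone variants, 9 genes among the 40392 Entrez genes in the tables of 2 RNA sequencing libraries: MACROH2A1, MACROH2A2, H2AZ1, H2AZ2, H2AX, H3-3A, H3-3B, H1-10 and CENPA. They were chosen by gene identity, with their values in these libraries already known, so every value below is a description and none is a test. KYSE30 is a widely used human line of esophageal squamous cell carcinoma. Mock cells were stable KYSE30 transfectants of the pIRES2-EGFP vector, and RHCG cells were stable KYSE30 transfectants of an expression vector for human RHCG, a Rhesus-family ammonia transporter of esophageal epithelium. The labels do not say whether the transfectants were single clones or pools. There was 1 library per group, so no replicate spread exists and each difference compares these 2 libraries only.

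Core and linker histones that package new DNA come from clustered genes that are transcribed in S phase and end in a stem-loop in place of a poly(A) tail. Replication-independent variants come from single genes outside those clusters, mostly with polyadenylated mRNA. Dedicated chaperones place several of them at chosen sites without need of DNA replication. H3.3 marks active genes and is also used at telomeres, H2A.Z sits beside promoters, macroH2A carries a large macrodomain and is enriched in silent chromatin, H2AX is phosphorylated at DNA breaks, and CENP-A replaces H3 at centromeres.

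RHCG itself was found where the labels place it, at 413 RPKM in RHCG cells against a listed 0 in mock cells. RPKM are reads per kilobase of transcript scaled to depth, so levels of different genes can be set side by side. The scaling of the tables gave a depth near 18900000 reads for mock cells and near 22100000 reads for RHCG cells. Of 10 squamous epithelium markers 9 were measured, KRT13 at 407 and 164 RPKM among them, and KRT5, which defines the basal layer, was listed at 0 in both libraries. The marker levels summed to 663 RPKM in mock and 275 RPKM in RHCG cells, with KRT13 the largest part of both sums. Lower by 2-fold were 4 of the 9, against 3.298% of 12857 measured genes. These were KRT6A (38.8 and 3.51 RPKM), KRT15 (101 and 27.3 RPKM), KRT13 and SOX2 (23.1 and 9.62 RPKM). The 2 that were higher were DSG3 (7.01 and 12.6 RPKM) and KRT14 (3.31 and 4.21 RPKM), by less than 2-fold. The part of the markers in the results below was not tested. Of 14 markers of fibroblasts, leukocytes, endothelium and erythroid cells, 12 were listed at 0 in both libraries, among them PTPRC, PECAM1 and HBB, and the others were CD68 (15.4 and 8.89 RPKM) and COL1A1 (1.19 and 1.44 RPKM). A gene listed at 0 had 1 RPKM or less, no reads, or was not counted.

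The promoters of the 2 macroH2A genes, of H3-3B and of H2AX are shown because these genes had the 3 lowest ratios and the highest ratio among the 9. Each run is the 250 bases before a RefSeq start on GRCh38.p14, 5′ to 3′ on the gene's strand, and capitals mark CCAAT on either strand (read as ATTGG on the other strand). CCAAT is the box bound by the factor NF-Y. MACROH2A2 is on the plus strand at chr10:70052596-70052845, MACROH2A1 on the minus strand at chr5:135399232-135399481 (1 of its 2 starts), H3-3B on the minus strand at chr17:75779780-75780029 and H2AX on the minus strand at chr11:119095466-119095715.
MACROH2A2: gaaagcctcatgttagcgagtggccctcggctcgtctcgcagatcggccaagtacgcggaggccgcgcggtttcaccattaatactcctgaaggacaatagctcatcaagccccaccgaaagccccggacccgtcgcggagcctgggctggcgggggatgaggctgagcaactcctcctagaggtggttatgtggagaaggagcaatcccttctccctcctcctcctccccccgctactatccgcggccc
MACROH2A1: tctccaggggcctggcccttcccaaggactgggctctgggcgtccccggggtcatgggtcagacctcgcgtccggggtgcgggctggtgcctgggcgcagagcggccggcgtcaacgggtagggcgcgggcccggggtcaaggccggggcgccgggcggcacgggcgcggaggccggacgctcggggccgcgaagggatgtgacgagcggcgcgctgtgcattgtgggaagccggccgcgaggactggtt
H3-3B: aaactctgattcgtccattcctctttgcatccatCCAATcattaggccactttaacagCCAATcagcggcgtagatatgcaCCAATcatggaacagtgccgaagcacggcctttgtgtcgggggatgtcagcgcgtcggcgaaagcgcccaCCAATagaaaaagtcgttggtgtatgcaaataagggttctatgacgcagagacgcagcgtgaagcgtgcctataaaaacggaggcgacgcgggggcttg
H2AX: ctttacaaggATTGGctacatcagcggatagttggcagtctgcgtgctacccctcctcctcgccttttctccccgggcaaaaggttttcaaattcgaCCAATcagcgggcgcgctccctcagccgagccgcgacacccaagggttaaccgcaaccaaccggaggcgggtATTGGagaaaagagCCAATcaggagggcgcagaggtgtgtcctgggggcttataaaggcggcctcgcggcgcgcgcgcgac
The MACROH2A2 window and the MACROH2A1 window shown hold no CCAAT, and those of H3-3B and H2AX hold 4 each. The window before the other MACROH2A1 start, not shown, holds 2, at 113 and 92 bases before that start.

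Across all 9 genes, which matched 13 starts in the RefSeq table, CCAAT was found before at least 1 start of 7 genes and before 9 of the 13 starts. It was found before 32.0% of 35116 promoters of the same length. H2AZ2, H2AX and H3-3B had 4 copies and H2AZ1 had 3, against 0.874% of promoters with 4 or more and 2.93% with 3 or more. TATAAA on either strand was found before 1 start each of H2AZ1, H2AX, H3-3B and H1-10, 29 to 31 bases before the start, and in 10.7% of all promoters. TTTGAA on either strand, the letters of the cell cycle homology region of genes expressed in G2 and M phase, was found 18 bases before the CENPA start and 164 bases before the H2AX start, and in 13.3% of all promoters. CENPA alone among the 9 had 1 of the E2F motifs TTTGGCGC, TTTCGCGC, TTTCCCGC and TTTGCCGC on either strand, found in 2.79% of all promoters. GGGCGG on either strand, the core of the GC box, was found for 5 of the 9 genes and in 42.6% of all promoters. No motif contains another, and a match describes the letters in this window only. The genes with 4 copies of CCAAT did not share a direction in the libraries, as their values below show.

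In the comparison of the libraries, MACROH2A2 was 12.3-fold lower in the RHCG library, MACROH2A1, H2AX, H2AZ1, H2AZ2 and H3-3A were 1.31-fold to 1.79-fold lower, and H3-3B was 1.67-fold higher. H1-10 and CENPA differed by 1.03-fold and 1.20-fold, both higher in the RHCG library. Ratios are given as log2((RHCG + 1)/(mock + 1)) in RPKM, and a log2 ratio of 1 or more is called higher and of −1 or less lower. All 9 genes had a mean of at least 1 RPKM and were measured. In bulk RNA, fewer cells that express a gene and less RNA per cell cannot be told apart. Of the 9, 1 was lower and 0 were higher, against 3.298% lower and 2.74% higher (6.04% in either direction) among 12857 measured genes. Below 0 lay 6 of the 9, against 50.5% of all genes, and their median was −0.43 against −0.01 for all genes. At a ratio of 1.5, 4 of the 9 were lower and 1 was higher, against 11.5% and 11.3% of all genes.

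**Figure D1:**
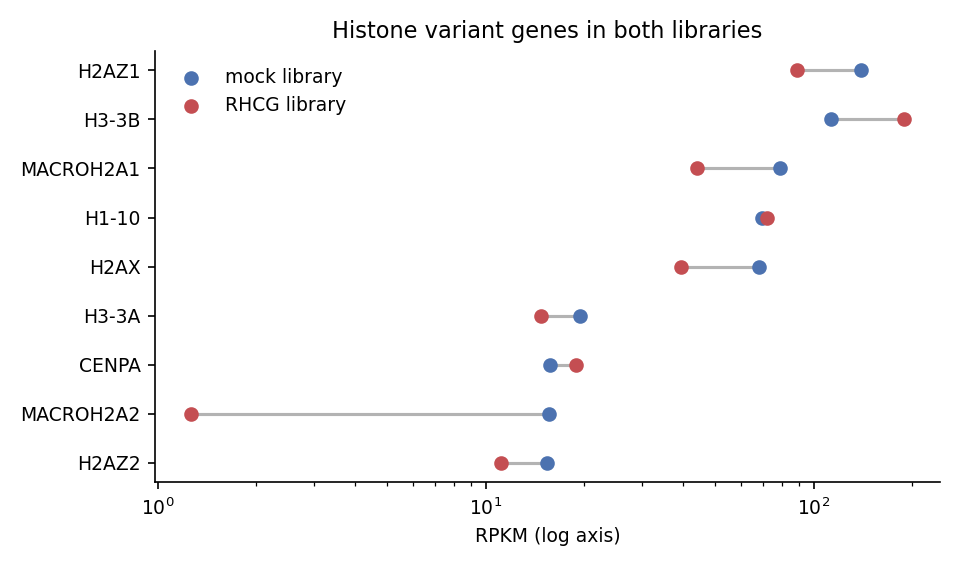
RPKM (log axis) of the 9 histone variant genes in the mock library (blue) and the RHCG library (red), 1 point per library, ordered by the mock level. MACROH2A2 spans 15.6 to 1.26 RPKM, and H3-3B is the gene whose red point lies farthest to the right of the blue one.

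In the mock library the levels ran from H2AZ1 (139 RPKM) through H3-3B (113 RPKM), MACROH2A1 (78.8 RPKM), H1-10 (69.8 RPKM), H2AX (68.3 RPKM), H3-3A (19.4 RPKM) and CENPA (15.7 RPKM) to MACROH2A2 (15.6 RPKM) and H2AZ2 (15.4 RPKM). H1-10 and H2AX, and likewise CENPA, MACROH2A2 and H2AZ2, had overlapping approximate 95% counting intervals there. In the RHCG library H3-3B (189 RPKM) stood first, ahead of H2AZ1 (88.9 RPKM), and H1-10 (72.05 RPKM) stood above MACROH2A1 (44.1 RPKM) and H2AX (39.5 RPKM). MACROH2A2 (1.26 RPKM) moved from the eighth place to the last. Counting intervals rest on approximate read numbers and cover counting error only, without differences between cultures, transfectants or library preparations.

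MacroH2A was the class with the widest difference. MACROH2A2 (Entrez gene 55506, chromosome 10), which encodes macroH2A2, was at 15.6 RPKM in mock cells and 1.26 RPKM in RHCG cells, or about 583 and 55 reads. Its log2 ratio was −2.87, rank 7 from the lowest among 12857 genes, and the plain ratio was 12.3-fold with a counting interval of 9.34 to 16.6. Of 4431 genes whose mock level was within 2-fold of its own, 3 others had a ratio as low. For the ratios no level counted below 1 RPKM, and 1 RPKM was added to each. Genes with mock levels in the lower part of this 2-fold range therefore could not reach −2.87, even if absent from the RHCG library. The rank and this count are partly set by that floor. MACROH2A1 (Entrez gene 9555, chromosome 5) encodes macroH2A1, which is spliced into isoforms that the tables do not separate, since they hold 1 value per gene. It was at 78.8 and 44.1 RPKM, a log2 ratio of −0.82 and a plain ratio of 1.79-fold (1.70 to 1.88).

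Summed over both genes, macroH2A was at 94.4 RPKM in mock cells and 45.3 RPKM in RHCG cells, 2.08-fold lower. MACROH2A2 made up 16.5% of this sum in mock cells (approximate exact interval 15.3 to 17.7) and 2.78% in RHCG cells (2.11 to 3.60). No 50-base word of either transcript was found in a transcript of another gene, so neither gene has a near-identical copy at that length in the annotation. The 50 nearest measured protein-coding genes, histone genes left out, also differed in their ratios between the pair. Around MACROH2A2 they had a median log2 ratio of 0.05, with 24 of 50 below 0. Around MACROH2A1 the median was −0.38 with 43 of 50 below 0, and MACROH2A1 lay −0.44 from that median.

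**Figure D2:**
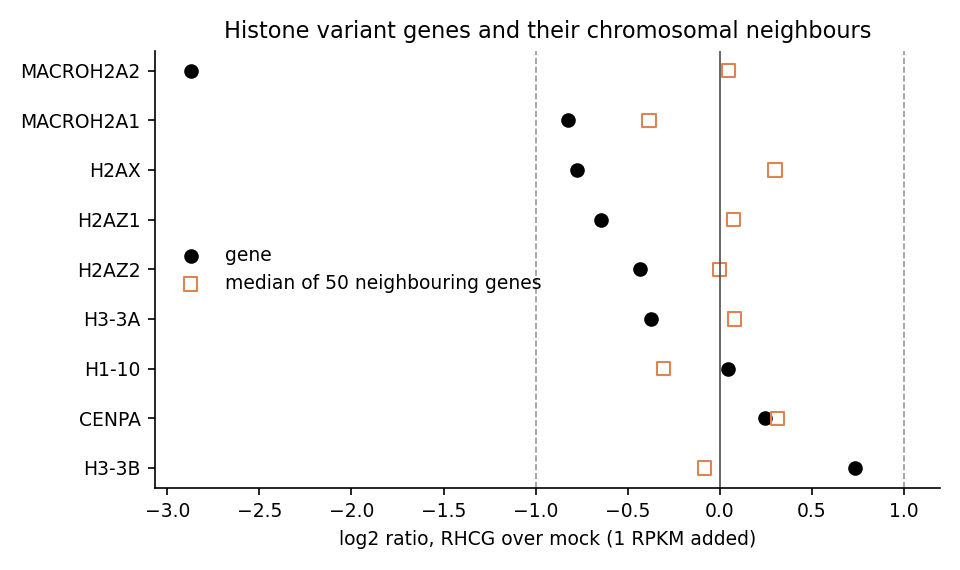
Log2 ratio of RHCG over mock with 1 RPKM added for each histone variant gene (black points) and the median over its 50 nearest measured protein-coding genes (orange squares); dashed lines mark 2-fold. MACROH2A2 lies at −2.87 with neighbours at 0.05, while MACROH2A1 and its neighbours both lie below 0.

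Both H2A.Z genes were lower by less than 2-fold, H2AZ1 by somewhat more than H2AZ2. H2AZ1 (Entrez gene 3015, chromosome 4) encodes H2A.Z.1 and was at 139 RPKM in mock cells and 88.9 RPKM in RHCG cells, a log2 ratio of −0.64. H2AZ2 (Entrez gene 94239, chromosome 7) encodes H2A.Z.2, which differs from H2A.Z.1 at a few residues, and was at 15.4 and 11.2 RPKM, a ratio of −0.43. The plain ratios were 1.57-fold (counting interval 1.48 to 1.66) and 1.38-fold (1.27 to 1.51). H2AZ2 made up 9.96% of the summed H2A.Z level in the mock library (9.34 to 10.6) and 11.1% in the RHCG library (10.4 to 11.95), intervals that overlap. The sum was 155 and 100.03 RPKM, 1.55-fold lower. Neighbouring genes had medians of 0.07 around H2AZ1 and 0.00 around H2AZ2. Of the 50-base words of the H2AZ1 transcript 6.45% occurred in another gene, a pseudogene, and all 7 H2A.Z pseudogenes in the tables were listed at 0 in both libraries.

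H2AX (Entrez gene 3014, chromosome 11), whose mRNA can end either in a stem-loop or in a poly(A) tail, was at 68.3 RPKM in mock cells and 39.5 RPKM in RHCG cells. Its log2 ratio was −0.77 and its plain ratio 1.73-fold (1.61 to 1.85). The genes around H2AX ran the other way, with a median of 0.30 and 8 of 50 below 0. With that median removed the H2AX ratio was −1.07, past the 2-fold line. The 12 genes of a list of H2AX damage signalling were all measured, with 0 higher and 0 lower and a median of −0.09. The most abundant of them were PRKDC, a kinase that phosphorylates H2AX, at 59.6 and 48.7 RPKM, and BAZ1B, a kinase for another residue of H2AX, at 36.4 and 57.1 RPKM.

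The H3.3 genes went in opposite directions. H3-3B (Entrez gene 3021, chromosome 17) was at 113 RPKM in mock cells and 189 RPKM in RHCG cells, a log2 ratio of 0.73 and a plain ratio of 1.67-fold (1.62 to 1.72). H3-3A (Entrez gene 3020, chromosome 1), which encodes the same protein, was at 19.4 and 14.8 RPKM, a ratio of −0.37 and 1.31-fold lower (1.14 to 1.52). Their sum was 133 and 204 RPKM, 1.53-fold higher in the RHCG library, and the share of H3-3A was 14.7% (13.4 to 16.0) in the mock library and 7.27% (6.57 to 8.01) in the RHCG library. Neighbours had medians of −0.08 around H3-3B, with 33 of 50 below 0, and 0.08 around H3-3A. After removal of these medians the ratios were 0.82 and −0.45.

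**Figure D3:**
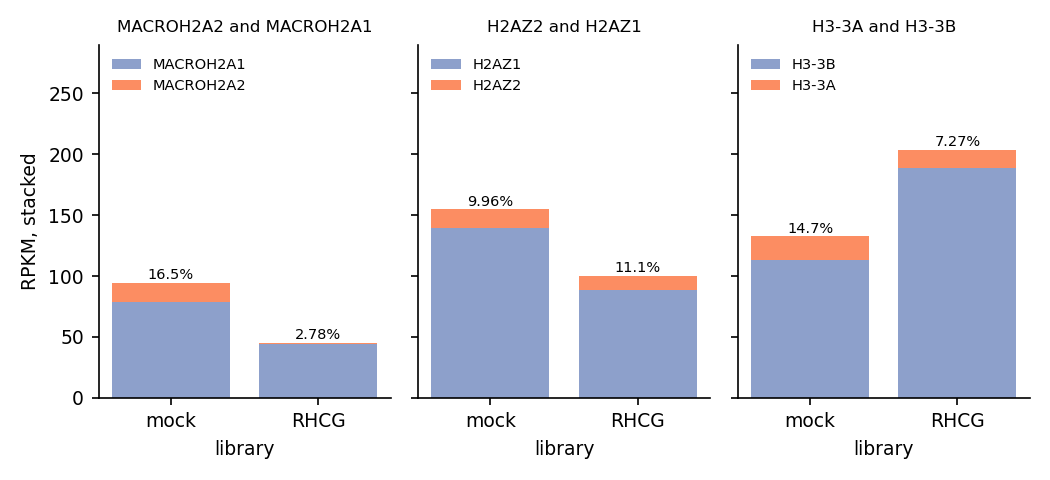
Stacked RPKM of each pair of paralogous variant genes in the mock and RHCG libraries, with the share of the gene in orange printed above each bar. The macroH2A sum goes from 94.4 to 45.3 RPKM, the H2A.Z sum from 155 to 100.03 RPKM and the H3.3 sum from 133 to 204 RPKM.

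The H3.3 values carry a limit from copies of similar sequence, and the first 90 coding bases are shown to let the genes be compared. They come from GENCODE transcripts on GRCh38, and capitals mark bases that differ from H3-3B.
H3-3B: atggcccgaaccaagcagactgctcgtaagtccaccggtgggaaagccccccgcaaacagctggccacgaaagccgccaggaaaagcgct
H3-5: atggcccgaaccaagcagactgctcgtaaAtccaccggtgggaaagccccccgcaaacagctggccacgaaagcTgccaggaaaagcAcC
H3-3A: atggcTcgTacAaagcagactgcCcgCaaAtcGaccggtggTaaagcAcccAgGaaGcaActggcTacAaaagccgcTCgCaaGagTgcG
H3-5 is an intronless gene on chromosome 12 that encodes an H3.3-like protein. Over these 90 bases H3-5 differs from H3-3B at 4 positions and H3-3A differs at 21. Over the whole coding sequence H3-3A and H3-3B were 78.6% identical, with no identical run longer than 14 bases, whereas H3-3B and H3-5 were 96.6% identical with a longest run of 107 bases. H3-5 was at 176 RPKM in mock cells and 233 RPKM in RHCG cells, a ratio of 0.40, and 21.8% of the 50-base words of its transcript also occurred in that of H3-3B. Of the H3-3A words, 34.8% occurred in 12 other annotated genes, led by the pseudogene H3F3AP4, and all 14 H3 pseudogenes in the tables were listed at 0 in both libraries. How the authors' counting assigned reads between these copies was not tested, and the H3-3A, H3-3B and H3-5 levels are uncertain to that extent.

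The factors that place H3.3 are the HIRA complex in genes and DAXX with ATRX at repeats. The list of 8 H3.3 deposition genes had a median of 0.08, with none past 2-fold upwards and 1 lower, against 3.298% lower among all genes. The lower one was ASF1B, an H3-H4 chaperone of proliferating cells that serves both S phase and replication-independent assembly, at 35.9 and 11.7 RPKM (log2 ratio −1.54). HIRA was at 11.1 and 12.3 RPKM, DAXX at 39.0 and 37.1 RPKM and ATRX at 3.65 and 4.44 RPKM. Of 15 H2A.Z exchange genes 0 were higher and 1 was lower, RUVBL2, an ATPase of the SRCAP and p400 remodelers, at 255 and 121 RPKM (−1.08). The RUVBL2 ratio was −0.71 with the shift of its neighbours removed and −0.95 with a trend with GC content and length removed, both short of 2-fold. The median of that list was −0.16, and SRCAP, the catalytic subunit, was at 14.8 and 15.1 RPKM.

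Among 12 general and replication-coupled histone chaperones 0 were higher and 2 were lower, against 2.74% and 3.298% of all genes. Their median was −0.46. CHAF1A, the large subunit of the assembly factor CAF-1 that loads new H3-H4 behind replication forks, was at 52.0 and 21.8 RPKM (−1.22). TONSL, which reads new H4 on replicated DNA, was at 17.9 and 7.20 RPKM (−1.21). The CHAF1A ratio was −0.99 with the shift of its neighbours removed. SSRP1, a subunit of FACT, was at 173 and 208 RPKM.

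CENPA (Entrez gene 1058, chromosome 2) was at 15.7 RPKM in mock cells and 18.8 RPKM in RHCG cells, a log2 ratio of 0.25 and a plain ratio of 1.20-fold (1.06 to 1.36). Its neighbours had a median of 0.31 with 11 of 50 below 0, and with that removed the CENPA ratio was −0.07, on the other side of 0. Of 6 genes for CENP-A deposition 0 passed 2-fold in either direction and the median was −0.36. HJURP, the chaperone that delivers CENP-A to centromeres, was at 43.6 and 28.7 RPKM (−0.59), and RBBP7, a histone-binding subunit of several complexes, at 40.3 and 43.2 RPKM. Of the 16 genes of the constitutive centromere network, the protein assembly found at CENP-A nucleosomes, 0 passed 2-fold and the median was −0.46. Below 0 lay 14 of these, against 50.5% of all genes. CENPX was at 140 and 77.7 RPKM and CENPO at 23.5 and 18.4 RPKM. In a list of 20 mitotic and G2 genes KIF20A (−1.59) and CDK1 (−1.10) were lower, against 3.298% of all genes. In that list 19 lay below 0 and the median was −0.35.

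The linker histone variant H1-10 stood near 0. The gene (Entrez gene 8971, chromosome 3), which encodes H1.10, was at 69.8 RPKM in mock cells and 72.05 RPKM in RHCG cells. Its log2 ratio was 0.04 and its plain ratio 1.03-fold with a counting interval of 0.972 to 1.10, the only interval of the 9 that includes 1. Its neighbours had a median of −0.31, and with that removed the ratio was 0.35.

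Replication-dependent histone genes had higher summed levels and a lower median ratio than the 9 variants (median −0.43), but single genes overlapped in both. All 62 measured ones lay below 0, against 50.5% of all genes, and their median was −0.98. Lower by 2-fold were 30 of them, against 3.298% of all genes, with H1-1 (−2.40), H3C12 (−2.38), H2AC12 (−2.34) and H2AC4 (−1.98) lowest. The S phase list had a median of −1.43 with 12 of 21 lower, FEN1 (−2.22), MCM5 (−2.09), MCM2 (−2.06) and TYMS (−2.02) lowest. Ribosomal depletion keeps RNA without a poly(A) tail, so both kinds of histone mRNA could be counted. Summed over H1-1 to H1-6, the replication-dependent H1 level was 2491 RPKM in mock cells and 1515 RPKM in RHCG cells. Of the sum of H1-1 to H1-6 and H1-10, the share of H1-10 was 2.73% in mock cells and 4.54% in RHCG cells, and that of the replication-dependent H1-5 was 30.8% and 13.7%. For H3, 13 replication-dependent genes summed to 3591 and 1616 RPKM and H3-3A, H3-3B and CENPA to 148 and 222 RPKM, a variant share of 3.97% and 12.1%. With H3-5 counted as a variant the share was 8.29% and 22.0%. For H2A, 17 replication-dependent genes summed to 3330 and 1970 RPKM and the 5 H2A variants with H2AJ to 332 and 197 RPKM, a share of 9.08% and 9.09%. Copies of replication-dependent genes are near-identical and share reads, and whether that moved the sums was not tested.

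**Figure D4:**
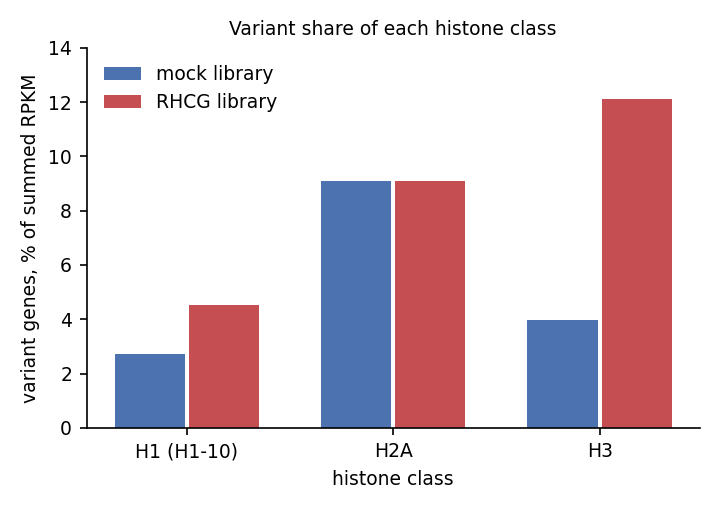
Variant genes as a percentage of the summed RPKM of the replication-dependent and variant genes given above for H1 (H1-10 as the variant), H2A and H3, in the mock (blue) and RHCG (red) libraries, 1 library each. The share is 2.73% and 4.54% for H1-10, 9.08% and 9.09% for H2A, and 3.97% and 12.1% for H3.

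**Figure D5:**
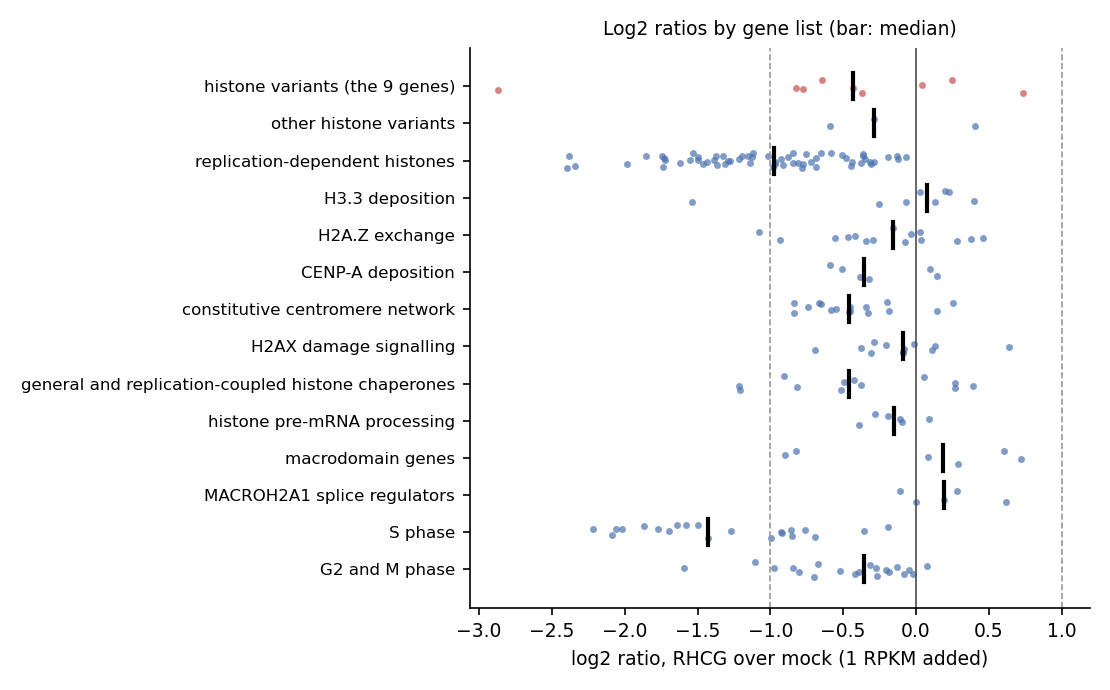
Log2 ratio of RHCG over mock with 1 RPKM added for each measured gene of the lists (points, spread vertically for display) and the list median (black bar); dashed lines mark 2-fold. The 9 variants (red) run from −2.87 to 0.73, replication-dependent histones all lie below 0, and S phase genes have a median of −1.43.

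Levels of other variant genes are given for the rest of the family. Of 14 further genes, 3 were measured and 11 were listed at 0 in both libraries, among them the germline genes H2AB1, H2AB2, H2AB3, H1-7 and H1-8. Besides H3-5, H2AJ, an H2A variant with a distinct C-terminal end, was at 14.97 and 12.1 RPKM (−0.29), and H4C16, an H4 gene outside the clusters, at 562 and 373 RPKM (−0.59).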

How the data were processed

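Total RNA of KYSE30 transfectants was depleted of ribosomal RNA and sequenced on barcoded Ion Torrent libraries, 1 per group, per the labels' protocols. Build hg19 and bedtools 2.25.0 appear in the submitters' processing notes, while the sources used here do not give aligner and counting. Each table deposited by the authors has a column headed RPKM that holds log2 RPKM with no pseudocount and no value below 0. Single-exon small RNA genes gave the depth constants: below 20 reads, 24.2% of mock values (44 of 182) and 37.0% of RHCG values (64 of 173) were whole to within 0.002, so counts were not recovered.

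The 40448 rows were summed to 40392 genes, 38047 of which matched RefSeq. Genes listed at 0 were set to 1 RPKM, and 12857 genes whose mean reached 1 RPKM were measured. Read numbers used the longest RefSeq-linked GENCODE transcript; intervals are 95% exact (Clopper-Pearson, or Poisson for levels), approximate, and cover counting error only. Neighbours were taken by RefSeq order on GRCh38. All variant genes, and of each of 13 gene lists the called members (up to 4) or the 2 most abundant, were named. HIRA, DAXX, ATRX, SRCAP, SSRP1, H1-5, H2AJ, H3-5, H4C16, PARP9, PARP14, the macrodomain genes and U7 genes listed at 0, and marker genes were added after their values were seen. One item of the planned lists is not reported here. The members and lists were chosen with earlier results of these data known. The fold rule was run on simulated read counts with counting error only, which cannot show the spread between cultures or libraries. Alternatives changed pseudocount, floor, filter, scaling, copy rows, neighbour shift, and GC and length. Tools were biopython 1.88, matplotlib 3.10.9, statsmodels 0.14.6, scipy 1.17.1, pandas 2.3.3 and numpy 2.4.6 under Python 3.11.15.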

Additional observations from a re-analysis of the deposited data

How the results depend on the processing

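With the shift of neighbouring genes removed, MACROH2A1 was at −0.44, H2AX at −1.07, H3-3B at 0.82, H1-10 at 0.35 and CENPA at −0.069. At that setting 2 variant genes were lower by 2-fold, H2AX and MACROH2A2, and over all genes 374 were lower and 256 higher. With a GC and length trend removed, MACROH2A1 was at −0.73, H2AX at −0.65, H3-3B at 0.66 and H1-10 at 0.17. MACROH2A2 was at −3.52 with a pseudocount of 0.1 RPKM, by construction. At a ratio of 1.5, 4 variant genes were lower and 1 was higher. Over all genes, 352 were higher and 424 lower by the main rule. A pseudocount of 0.1 RPKM gave 533 and 673, a floor of 0 RPKM for genes listed at 0 gave 686 and 1004, and a ratio of 1.5 gave 1447 and 1481, and each loosens the rule by construction. The other 71 of 81 values of the 9 variants moved by no more than the wider arm of the counting interval of the gene's plain log2 ratio. Many of them could not move, since the filters, the floor and the copy row left the values of all 9 genes unchanged. The 12 pair shares were recomputed only for the floor and the copy row and were identical, so they say nothing of stability. Of 135 list medians, 125 moved by no more than the median half-width of their members' counting intervals. Here too, removing the filter and changing the copy row left every median unchanged. MACROH2A2 stayed between −3.52 and −2.81 over all settings, and the 2 scalings moved every ratio by about −0.01. The cause of the moves with neighbours or GC and length was not tested. No paired analysis was possible because each group had a single library, which also leaves none to omit. At 55 approximate reads in the RHCG library, MACROH2A2 was the least deeply covered of the 9.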

Other observations

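Genes tied to macroH2A by domain or by splicing did not pass 2-fold in either direction once 1 RPKM was added. Of 8 macrodomain genes 6 were measured, with a median log2 ratio of 0.18. PARP14 (6.72 RPKM in mock and 3.13 RPKM in RHCG cells, −0.90) and PARP9 (4.13 and 1.90 RPKM, −0.82) lay below 0. The other 4 lay above 0. MACROD1, a hydrolase that removes ADP-ribose from proteins, was at 23.96 RPKM in mock cells and 40.2 RPKM in RHCG cells, and OARD1, a hydrolase of the same superfamily, at 7.71 and 9.62 RPKM. MACROD2 and PARP15 were listed at 0 in both libraries. Of 5 regulators of MACROH2A1 splicing, the most abundant were the helicases DDX5, at 138 and 138 RPKM, and DDX17, at 65.9 and 80.4 RPKM, and the median was 0.19.

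Of 8 genes that process the stem-loop ends of replication-dependent histone mRNA, 6 were measured and 0 passed 2-fold, with a median of −0.15. LSM10, a subunit of the U7 particle, was at 43.0 and 40.1 RPKM, and SLBP, the stem-loop binding protein, at 39.8 and 34.7 RPKM. LSM11 and RNU7-1, the U7 RNA, were listed at 0 in both libraries.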
